A study of Mus musculus with 6 samples.

Results

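The aminoacyl-tRNA synthetases are the enzymes that load each tRNA with its amino acid. Their mRNAs were followed here in the livers of 3 Lkb1KOlivad and 3 control mice. The members were 36 named genes, 20 for cytosolic enzymes and 16 for mitochondrial ones, of 19938 genes measured on the arrays. A member was taken where the array annotation gave a probe set with its symbol alone, and the brightest such probe set stood for the gene. This left 34 members, 18 cytosolic and 16 mitochondrial. *Aars*, which charges tRNA with alanine, had only a probe set that it shares with *Exosc6*, and *Dars*, the cytosolic enzyme for aspartate, had no probe set in the annotation used, so neither has a value here.

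Lkb1KOlivad mice carried Lkb1 fl/fl alleles and TTR-CreTam, a tamoxifen-inducible Cre under the transthyretin promoter, which is active in hepatocytes. The controls were littermates with the floxed alleles and no Cre, so both groups shared the floxed *Lkb1* gene. The mice were on the FVB/N background and all 6 were female. By the usual protocol, adults of both groups, 8 to 12 weeks old, received tamoxifen in 2 injections of 1.5 mg and were studied 15 days later in most experiments, after a fast of 18 hours in most cases. The sources used here do not state the age, the injections or the times for the single array mice. The deletion reaches hepatocytes only, while the RNA came from whole liver, with 1 array per mouse and no pooling. Deletion, Cre and the state they bring about cannot be told apart, since no mouse with Cre and intact *Lkb1* was measured.

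Each synthetase recognises 1 amino acid, activates it with ATP and joins it to the matching tRNA, which the elongation factor then carries to the ribosome. Cytosol and mitochondria run separate protein synthesis, and most amino acids have a separate nuclear gene for each compartment. *Gars* and *Kars* each encode both forms from 1 gene, and *Eprs* joins the glutamate and the proline enzyme in 1 protein. Several cytosolic enzymes sit with the scaffold proteins Aimp1, Aimp2 and Eef1e1 in the multisynthetase complex. Uncharged tRNA activates the kinase Gcn2, encoded by *Eif2ak4*, and through it the transcription factor Atf4, whose known targets include many cytosolic synthetase genes. The question put to these arrays was whether liver lacking Lkb1, which was studied for its handling of amino acids in the fasted state, carries other levels of the mRNAs for tRNA charging.

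All values are log2 RMA signals, so a difference of 1 is a doubling, and signals of different probe sets were not set against each other. *Stk11*, which encodes Lkb1, was lower in the 3 mutant livers, with a difference of -1.64 (SE 0.12, adjusted p = 0.00705, limma), as the labels say. It was the 1 gene of the 19938, 0.00502%, at an adjusted p under 0.05. The hepatocyte markers *Alb*, *Ttr*, *Apoa1* and *Cps1* gave signals with group means of 12.3 to 12.6, and 0 of the 8 hepatocyte markers passed an unadjusted p of 0.05. Array medians lay between 5.03 and 5.08. Control B302 stood apart on the first principal component over all genes (30.4% of the variance), at 30.3 where the other mice lay between -16.5 and 5.41. The limma p-values set each group difference against the spread between mice within the groups, moderated by the spread over all genes. They rest on these 6 mice.

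The synthetase mRNAs did not differ detectably between the groups. With limma and adjustment over all genes, 0 of 34 passed, and 1, *Wars*, passed at an unadjusted p under 0.05. Over all genes, 3.03% did so, 1.52% with higher and 1.51% with lower signal in the mutant mice, so that the share among the synthetases (1 of 34) was near the background. The 3 mutant mice lay all above the 3 control mice for 1 member, again *Wars*, and all below for 0. Over all genes the groups did not overlap for 7.16%, with 3.46% all above and 3.7% all below. The half-width of the 95% interval had a median of 0.35 on the log2 scale. Taken singly, the interval of each of the 34 members excluded a 2-fold difference in signal in either direction. Upper limits were 1.11-fold to 1.71-fold and lower limits 0.727-fold to 1.07-fold. These limits hold for the array signal, since signal over background could not be judged without detection calls.

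**Figure D1:**
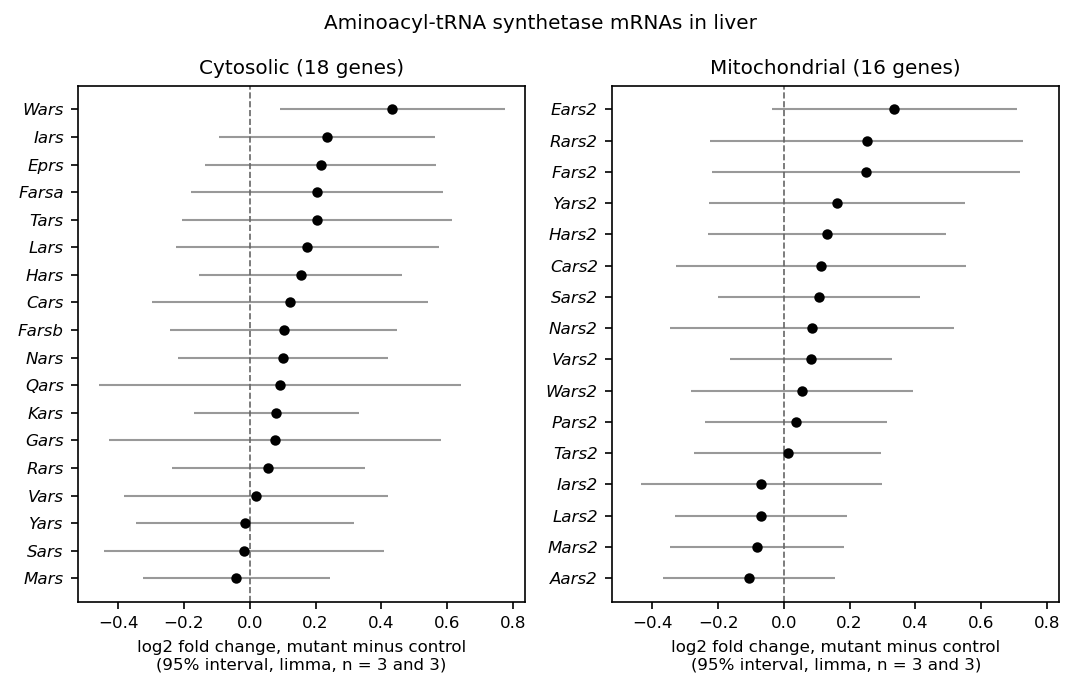
Log2 fold change (mutant minus control) of each measured synthetase, with its 95% interval from limma, for cytosolic enzymes on the left and mitochondrial ones on the right; n = 3 mice a group. Points run from -0.04 to 0.43 and from -0.11 to 0.34, and the interval of *Wars* alone leaves out 0.

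Among the 18 cytosolic enzymes the median log2 fold change was 0.10, with 15 estimates above 0 and 3 below. Among the 16 mitochondrial enzymes it was 0.08, with 12 above and 4 below. Over all genes the median was 0.0049 and 51.6% of estimates were above 0. The 34 members share the same 6 mice and are not independent of each other, so these counts are a description. In whole liver, less RNA per cell and fewer cells of a type cannot be told apart.

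*Wars*, the cytosolic tryptophan enzyme and known as an interferon-gamma-induced gene, had the largest estimate of the 34. Its log2 signal was 6.09 in mutant B253, 5.69 in B304 and 5.84 in B305. In the controls it was 5.64 in B256, 5.40 in B267 and 5.26 in B302, and values of the other genes are given in the same order of mice. The lowest mutant mouse lay just above the highest control mouse. The log2 fold change was 0.43 (standard error 0.15, 95% interval 0.09 to 0.78), which is 1.35-fold, with an unadjusted p of 0.0187 and an adjusted p of 0.9997 by limma. The exact two-sided permutation test gave p = 0.1, the smallest that 3 against 3 mice allow. The estimate was 0.33 without mutant B253 and 0.54 without control B256, and its adjusted p was 0.889 or more in every alternative. Within the mice numbered in the two-hundreds the difference was 0.56 and within those in the three-hundreds 0.50.

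The next 4 cytosolic members by p were *Iars*, *Eprs*, *Farsa* and *Hars*, which charge isoleucine, glutamate with proline, phenylalanine and histidine. *Iars* gave 9.48, 9.45 and 9.46 in the mutant mice and 9.50, 8.98 and 9.20 in the control mice. The mutant mice were nearly equal, while control B256 lay above them and the other controls below. The log2 fold change was 0.24 (standard error 0.14, unadjusted p = 0.141, limma). A dimmer probe set of *Iars*, annotated to the same gene, gave -0.02, so the pair of probe sets disagree in sign.

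*Eprs* gave 9.82, 9.79 and 9.65 in the mutant mice and 9.81, 9.53 and 9.26 in the control mice, a log2 fold change of 0.22 (unadjusted p = 0.197, limma). Control B256 again lay among the mutant mice. *Farsa*, the catalytic subunit of the cytosolic phenylalanine enzyme, gave 6.47, 6.20 and 6.04 against 6.20, 5.73 and 6.17, a log2 fold change of 0.20 (unadjusted p = 0.257). Its partner subunit *Farsb* had an estimate of 0.10. *Hars* gave 7.26, 7.05 and 6.95 against 7.08, 6.95 and 6.76, a log2 fold change of 0.15 (unadjusted p = 0.285). The groups overlapped for each of these genes.

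The lowest cytosolic estimate was that of *Mars*, the methionine enzyme that also charges the initiator tRNA. It gave 6.86, 6.85 and 6.80 in the mutant mice and 7.06, 6.86 and 6.71 in the control mice, a log2 fold change of -0.04 (SE 0.12). The mutant mice lay inside the range of the controls. *Sars* and *Yars* had the other estimates below 0, at -0.02 and -0.01, and *Tars*, *Lars*, *Nars*, *Kars*, *Rars* and *Vars* lay between 0.02 and 0.20.

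**Figure D2:**
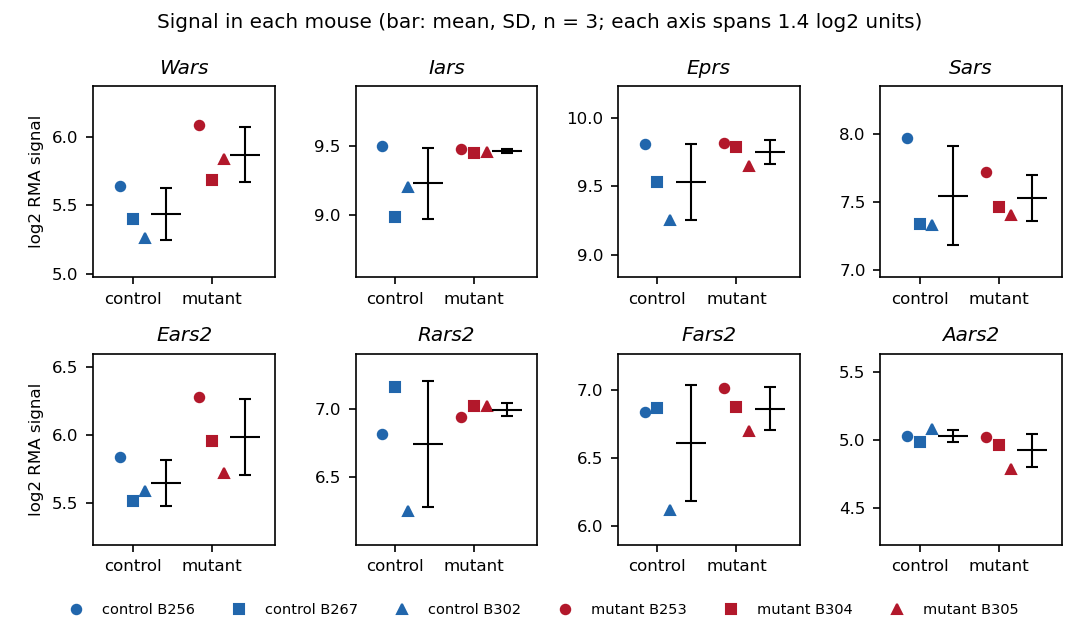
Log2 RMA signal in each mouse for 4 cytosolic (upper) and 4 mitochondrial (lower) synthetases, controls in blue and mutants in red, the bar beside each group giving its mean and SD (n = 3). The groups are apart for *Wars* and overlap for the other genes shown. Control B302 is lowest for *Wars*, *Eprs*, *Rars2* and *Fars2*, and for *Sars*, where control B267 is nearly level with it.

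Alanine, serine, glycine, cysteine, glutamine and aspartate are amino acids that the liver can turn into glucose, and their enzymes were given whatever their values. *Sars*, for serine, gave 7.72, 7.46 and 7.40 in the mutant mice and 7.97, 7.34 and 7.33 in the control mice. Control B256 was the highest mouse of all and the other controls the lowest. The log2 fold change was -0.02 (standard error 0.19, 95% interval -0.44 to 0.41).

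*Gars*, for glycine, gave 8.72, 8.35 and 8.57 in the mutant mice and 8.93, 8.47 and 8.01 in the control mice. The controls alone spanned 0.93 on the log2 scale, more than the whole mutant range of 0.37. The log2 fold change was 0.08 (standard error 0.22, 95% interval -0.43 to 0.58).

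*Qars*, for glutamine, had the widest spread of the 34 among controls. It gave 7.31, 7.24 and 6.89 in the mutant mice and 7.57, 7.05 and 6.55 in the control mice, a control range of 1.02. The log2 fold change was 0.09 (standard error 0.24, 95% interval -0.46 to 0.64). *Cars*, for cysteine, gave 6.77, 6.30 and 6.01 against 6.16, 6.34 and 6.21. Here the mutant mice were the spread-out group, with B253 above and B305 below all controls, and the log2 fold change was 0.12 (standard error 0.18). With *Aars* and *Dars* unmeasured, 0 of these 4 passed an unadjusted p of 0.05, and their median was 0.08.

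Among the mitochondrial enzymes, *Ears2*, which charges glutamate, had the largest estimate. It gave 6.28, 5.95 and 5.72 in the mutant mice and 5.84, 5.51 and 5.59 in the control mice. Control B256 lay above mutant B305. The log2 fold change was 0.34 (standard error 0.16, 95% interval -0.04 to 0.71, unadjusted p = 0.0721, limma), and 0.19 without mutant B253.

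*Fars2*, for phenylalanine, gave 7.01, 6.87 and 6.70 in the mutant mice and 6.84, 6.87 and 6.12 in the control mice. *Rars2*, for arginine, gave 6.94, 7.02 and 7.03 against 6.82, 7.16 and 6.25. In both genes control B302 lay far below the other 5 mice, which overlapped. Both had a log2 fold change of 0.25 (unadjusted p = 0.255 and 0.259, limma), and without B302 both were at 0.0054.

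The lowest mitochondrial estimate was that of *Aars2*, the alanine enzyme. It gave 5.02, 4.96 and 4.79 in the mutant mice and 5.03, 4.99 and 5.08 in the control mice, a log2 fold change of -0.11 (standard error 0.11, unadjusted p = 0.378). The control mice lay within 0.091 of each other and mutant B305 below them all. *Mars2*, *Lars2* and *Iars2* had the other estimates below 0, at -0.08, -0.07 and -0.07. *Yars2*, *Hars2*, *Cars2*, *Sars2*, *Nars2*, *Vars2*, *Wars2*, *Pars2* and *Tars2* lay between 0.01 and 0.16.

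For 15 pairs, the cytosolic and the mitochondrial enzyme for the same amino acid were both measured, with *Eprs* set against both *Ears2* and *Pars2*. The signs were the same in 11 pairs and the cytosolic estimate was the larger in 9. The widest gap was that of tryptophan, with log2 fold changes of 0.43 for *Wars* and 0.06 for *Wars2*. For isoleucine they were 0.24 and -0.07, and for arginine the mitochondrial gene had the larger value, 0.25 against 0.06. With standard errors of 0.11 to 0.21 on each of these values, the gaps were not tested.

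**Figure D3:**
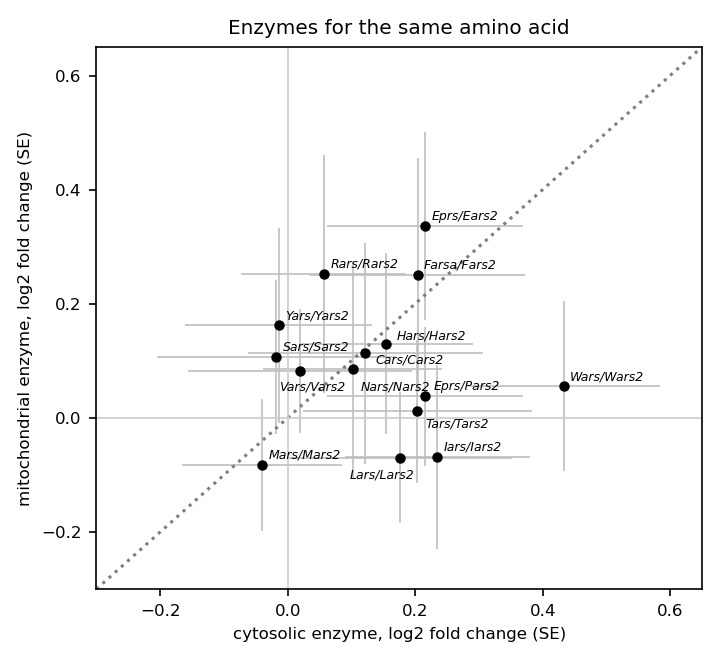
Log2 fold change of the cytosolic (horizontal) against the mitochondrial (vertical) enzyme for the same amino acid, 15 pairs, bars giving 1 standard error from limma; the dotted line marks equal values. *Wars* and *Wars2* lie farthest from the line, and the other pairs lie nearer to it.

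The families of enzymes gave medians close to each other. By the fold of the catalytic domain, the 19 class I enzymes measured had a median log2 fold change of 0.09 (14 above 0) and the 15 class II enzymes one of 0.10 (13 above 0). The 7 enzymes of the multisynthetase complex that were measured had a median of 0.09, and the 11 cytosolic enzymes outside it one of 0.10. The 11 measured members listed as Atf4-responsive had a median of 0.12 and the 7 other cytosolic ones 0.09. No member apart from *Wars*, which is class I, listed as Atf4-responsive and outside the complex, passed an unadjusted p of 0.05.

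The cytosolic members varied together from mouse to mouse, across the groups. The mean over the 18 cytosolic members, set against the mean of the controls, was 0.28 in mutant B253 and 0.24 in control B256. It was 0.08 and 0.01 in mutants B304 and B305, and -0.08 and -0.16 in controls B267 and B302. The highest and the next highest mouse were thus 1 of each group, and the lowest were both controls.

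The same mice recurred gene by gene. B253 had the highest signal of the 6 for 9 cytosolic members and B256 for 8, together 17 of 18, where they were highest for 31.7% of all genes. The exception was *Kars*, for lysine, which was highest in mutant B304. B302 was lowest for 12 of the 18 and B267 for 5, while B302 was lowest for 20.7% of all genes. Over all genes the mean differed between mice by no more than 0.041.

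The mitochondrial members followed the pattern in part. Their mean was 0.14 in B253, 0.10 in B304 and 0.0029 in B305, while the controls B256, B267 and B302 were at 0.11, 0.06 and -0.16. B253 or B256 was highest for 9 of 16 and B302 lowest for 8. The distance of B302 below the mean of the controls was widest for *Rars2*, *Fars2*, *Nars2*, *Iars2* and *Hars2*.

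**Figure D4:**
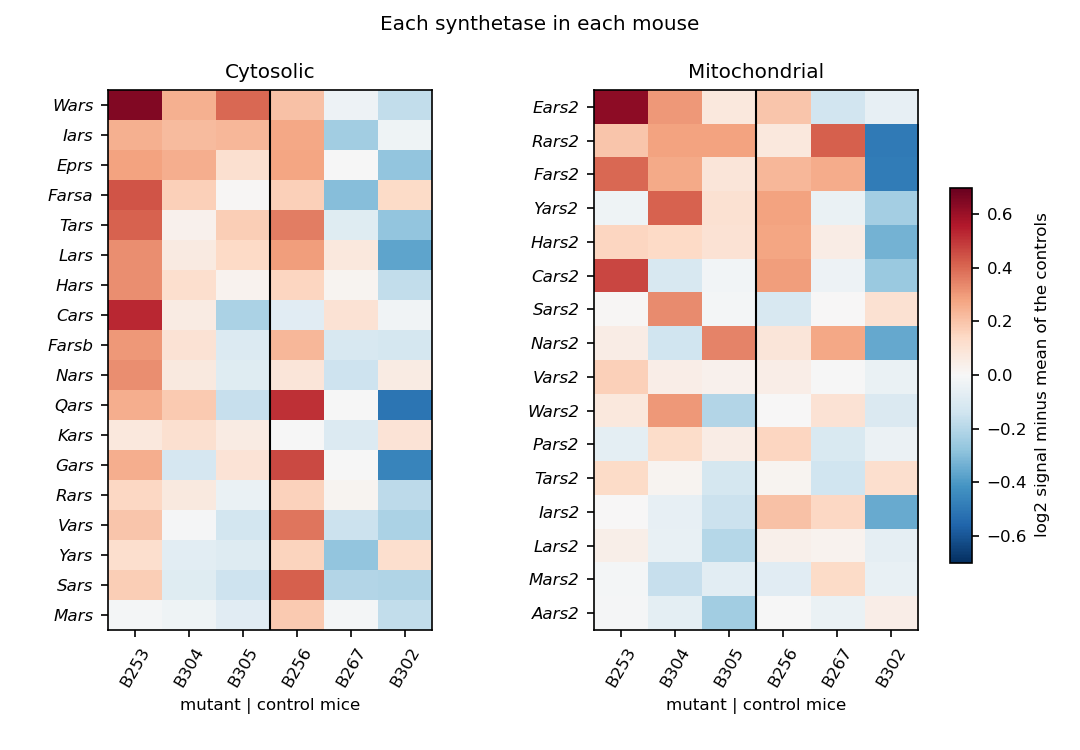
Signal of each synthetase per mouse (log2), less the mean of the 3 controls, on a colour scale from -0.7 (blue) to 0.7 (red); genes are ordered by log2 fold change and a line divides mutants from controls. In the cytosolic panel the columns of mutant B253 and control B256 are the red ones, and B302 is blue in most rows.

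For the cytosolic members the control mice spread more than the mutant mice. The range over the 3 controls exceeded that over the 3 mutants for 14 of 18, against 9 of 16 mitochondrial members and 11330 of 19938 genes. The median range of the cytosolic members was 0.45 in controls and 0.32 in mutants, against 0.31 and 0.27 over all genes. For 17 of the 18 the difference between the group means was smaller than the range of the controls, *Wars* being the exception. For the mitochondrial members this held in 14 of 16, and over all genes in 89.2%.

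Which mice were compared therefore moved the medians. The cytosolic median was 0.0106 without mutant B253 and 0.23 without control B256, when all 18 estimates were above 0. Without B256, the remaining groups did not overlap for 12 of the 34 members (35.3%), all 12 above, where 18.5% of all genes did so and 9.38% were above. At an unadjusted p under 0.05 there were then 5 members, *Eprs*, *Iars*, *Tars*, *Wars* and *Ears2*, all with higher signal. Of all 19938 genes 4.34% passed, 521 with higher and 345 with lower signal. Without both B253 and B256 the cytosolic median was 0.13. Without control B302, which stood apart over all genes, the medians were 0.06 for cytosolic and 0.0048 for mitochondrial members. No member reached an adjusted p under 0.05 in any setting.

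By number, the mice fall into a first series, in the two-hundreds (mutant B253, controls B256 and B267), and a second, in the three-hundreds (mutants B304 and B305, control B302). The labels do not say what a series is. The cytosolic median was 0.16 within the first and 0.18 within the second, and 0.23 once the series entered the fit as a block. The mitochondrial medians were 0.0122 and 0.17, and 0.10 with the block. With the block, *Wars*, *Ears2* and *Fars2* passed an unadjusted p of 0.05, all with higher signal. Of all 19938 genes 5.02% did so, 589 with higher and 412 with lower signal.

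Other lists moved with these mice to different degrees. The 8 hepatocyte markers had a mean of 0.25 in control B256, 0.12 in mutant B253, 0.04 and -0.03 in mutants B304 and B305, and -0.09 and -0.16 in controls B267 and B302. That is nearly the order of the cytosolic synthetases, and its part in their pattern was not tested. All 6 stellate cell markers had estimates below 0 in the mutant mice, with a median log2 fold change of -0.27, and 5 of 6 Kupffer cell markers did so with a median of -0.14. The range of the stellate mean was -0.50 to -0.12 in mutants and -0.16 to 0.11 in controls, and that of the Kupffer mean -0.28 to 0.03 and -0.53 to 0.32. Of the 3 proliferation markers measured, estimates lay between -0.39 and -0.04. Sinusoidal endothelial, cholangiocyte, T and NK cell and neutrophil markers had medians of -0.10, 0.08, -0.19 and 0.22. All mutant mice lay below all controls for 3 of 4 T and NK cell markers. The same held for 1 of 6 stellate, 1 of 4 cholangiocyte and 1 of 3 proliferation markers, and for 3.7% of all genes. It held for 0 Kupffer, endothelial, neutrophil and hepatocyte markers. At an unadjusted p under 0.05 (limma), *Lrat* (stellate), *Nkg7* (T and NK) and *Top2a* (proliferation) passed, each lower, where 1.51% of all genes did. Whether these cell types bear on the synthetase values was not tested.

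**Figure D5:**
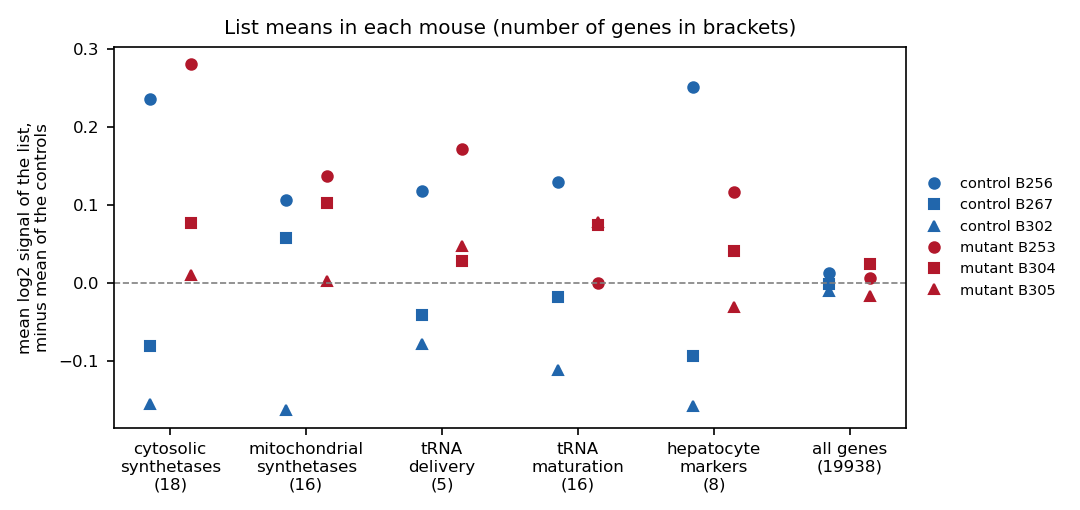
Mean log2 signal of 6 gene lists per mouse, less the mean of the 3 controls, controls in blue and mutants in red; the number of genes stands under each list. For cytosolic synthetases, factors that deliver tRNA and hepatocyte markers, mutant B253 and control B256 lie above the other 4 mice, while the means over all genes stay within 0.041.

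The steps around charging showed few differences. Of the 5 measured factors that deliver charged tRNA to the ribosome, *Eef1a1*, *Eef1b2*, *Eef1d*, *Tufm* and *Tsfm*, 0 passed an unadjusted p of 0.05, and the median log2 fold change was 0.06. Of 16 measured genes for tRNA maturation and export, 1 passed with higher signal and 0 with lower. Over all genes, 1.52% passed with higher and 1.51% with lower signal. The gene was *Trmt10c*, a methyltransferase subunit of the mitochondrial RNase P, at 0.40 (unadjusted p = 0.0403, adjusted p = 0.9997, limma). Its mutant mice lay just above the control mice, as for 3.46% of all genes. *Prorp* and *Hsd17b10*, the other subunits of the mitochondrial RNase P, had estimates of -0.06 and -0.13.

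Of 11 other charging and editing enzymes measured, 1 passed the same threshold with lower signal and 0 with higher. Over all genes, 1.51% did so with lower and 1.52% with higher signal. *Dtd1*, which removes D-amino acids from tRNA, gave 7.79, 7.70 and 7.35 in the mutant mice and 7.95, 8.01 and 8.27 in the control mice. All mutant mice lay below all controls, as for 3.7% of all genes. The log2 fold change was -0.47 (standard error 0.15, unadjusted p = 0.0142, adjusted p = 0.9997, limma). The proofreading relative *Dtd2* was at -0.07. *Qrsl1*, *Gatb* and *Gatc*, which make the mitochondrial glutaminyl-tRNA by transamidation, lay between 0.04 and 0.17. The scaffolds of the multisynthetase complex had log2 fold changes of -0.00027 for *Aimp1*, -0.04 for *Aimp2* and 0.42 for *Eef1e1*, with an unadjusted p of 0.103 for the last.

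In the sensing arm, *Eif2ak4*, which encodes Gcn2, gave 6.0004, 6.02 and 6.06 in the mutant mice and 6.71, 6.40 and 6.18 in the control mice. The mutant mice lay all below the controls, as for 3.7% of all genes. The difference was -0.40 on the log2 scale (SE 0.15, unadjusted p = 0.0226, adjusted p = 0.9997, limma). *Atf4* was at 0.03 and the asparagine synthetase gene *Asns*, a classical Atf4 target, at 0.28 (unadjusted p = 0.158). Of 21 genes of amino acid sensing and Atf4 targets, 3 passed the unadjusted threshold with lower and 1 with higher signal, and 0 after adjustment, where 1.51% of all genes passed with lower and 1.52% with higher signal. These were *Eif2ak4*, *Chac1*, a glutathione-degrading enzyme (-0.69), *Phgdh*, the first enzyme of serine synthesis (-0.58), and *Ddit3*, the transcription factor Chop (0.51, groups overlapping).

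The promoters of the members were read for the core of the C/EBP-ATF response element, through which Atf4 acts, since many cytosolic synthetase genes are known targets. The 11 members listed as Atf4-responsive and the 7 other cytosolic members followed the same mice, with means of 0.30 and 0.25 in mutant B253, 0.24 and 0.23 in control B256 and -0.17 and -0.14 in control B302. The windows, from RefSeq on build GRCm38.p6, run from 250 bases before to 50 after the gene start, and 27 of the 36 members matched an entry, 13 cytosolic and 14 mitochondrial. The letters searched were TGATGNAA on either strand, with N any base. They stood in the window of 5 of the 13 cytosolic members, *Aars*, *Gars*, *Iars*, *Tars* and *Yars*, and of 0 of the 14 mitochondrial ones. Over all genes in the table, 4.51% held it, and 3.97% of all windows. The motif was looked at after values were seen, along with 5 others not shown, so these shares are a description. A match is a stretch of letters and not a site shown to be bound.

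The windows of the 4 measured members with a match are shown 5' to 3' on the strand of the gene, with the match in capitals, so that the letters can be set beside the values. *Iars* lies on chr13:49681880-49682179 (plus strand), *Tars* on chr15:11399609-11399908 (minus strand), *Yars* on chr4:129189653-129189952 (plus strand) and *Gars* on chr6:55037751-55038050 (plus strand).
Iars: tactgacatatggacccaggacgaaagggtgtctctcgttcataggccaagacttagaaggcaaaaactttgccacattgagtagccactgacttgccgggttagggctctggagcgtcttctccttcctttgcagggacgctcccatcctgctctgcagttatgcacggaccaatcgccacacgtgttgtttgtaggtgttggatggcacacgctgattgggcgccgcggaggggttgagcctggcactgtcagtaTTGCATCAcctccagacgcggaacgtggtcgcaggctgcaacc
Tars: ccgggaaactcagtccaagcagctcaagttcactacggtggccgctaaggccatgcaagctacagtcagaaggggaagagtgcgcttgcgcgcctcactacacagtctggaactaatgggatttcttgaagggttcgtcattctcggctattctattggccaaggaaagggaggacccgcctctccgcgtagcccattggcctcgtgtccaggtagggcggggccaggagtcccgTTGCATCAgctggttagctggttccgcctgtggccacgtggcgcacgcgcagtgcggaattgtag
Yars: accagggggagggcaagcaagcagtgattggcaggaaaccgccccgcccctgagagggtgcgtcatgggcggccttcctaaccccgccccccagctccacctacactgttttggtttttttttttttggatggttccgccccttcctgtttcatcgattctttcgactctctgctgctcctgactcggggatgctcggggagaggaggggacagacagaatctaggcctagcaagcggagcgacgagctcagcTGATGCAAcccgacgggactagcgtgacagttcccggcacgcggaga
Gars: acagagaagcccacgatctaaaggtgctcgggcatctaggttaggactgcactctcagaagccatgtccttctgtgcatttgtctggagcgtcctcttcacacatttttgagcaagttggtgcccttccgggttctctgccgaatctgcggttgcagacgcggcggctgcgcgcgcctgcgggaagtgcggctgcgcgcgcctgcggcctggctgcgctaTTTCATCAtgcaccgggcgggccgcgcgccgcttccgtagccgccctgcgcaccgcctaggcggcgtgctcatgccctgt

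The matches of *Iars* and *Yars* began 7 and 3 bases into the transcribed stretch, and those of *Tars* and *Gars* 15 and 30 bases before the start. The log2 fold changes of these 4 genes were 0.24, 0.20, -0.01 and 0.08 for *Iars*, *Tars*, *Yars* and *Gars*. The value of *Iars* is that of its brighter probe set, and the dimmer one gave -0.02. Mutant B253 or control B256 was the highest mouse for each of the 4, as for 17 of the 18 cytosolic members, to which these 4 belong. Members with and without a match were not compared.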

How the data were processed

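Total liver RNA of 3 Lkb1KOlivad and 3 control mice was extracted with Trizol and hybridized to Affymetrix mouse gene arrays. Per the labels, the deposited values are log2 signals that the authors made with RMA (background correction, normalization between arrays, summary into probe sets). The labels name NuGEN kits and Partek, the methods name Affymetrix labelling, Expression Console and BRB-ArrayTools, with no versions stated in the sources used here. Groups and mouse numbers come from the labels, and the fasted state from the paper.

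Of 35556 probe sets, 21789 had 1 gene symbol in the annotation used. That annotation is of an earlier array generation than the methods name, but the probe set identifiers of the values match it. Symbols were updated by gene identifier (21698 found). The brightest of several probe sets stood for a gene (999 genes), which gave 19938 genes with no filter. The arrays carry no detection calls, and their number limits the precision.

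Groups were compared with limma 3.58.1 in R 4.3.3 (lmFit, eBayes, two-sided, no covariate, Benjamini-Hochberg over all genes, threshold 0.05), which was tested on simulated data, and with exact permutation tests for single genes. Figures were drawn with matplotlib 3.10.9. The members and lists were chosen with earlier results of these data known, so no list was tested as a set. Stated with full values were *Stk11*, the 5 cytosolic and 3 mitochondrial members of smallest p, the extremes of each class, and the enzymes for 6 amino acids that feed gluconeogenesis. Other genes named were up to 3 of smallest p in each other list and 6 fixed genes, and the remaining names only fill out counts. The alternatives were quantile normalization, median centring, leaving out dim genes (under the percentile 25), averaged probe sets, robust estimation with a trend on intensity, array weights, a block for the series of mouse numbers, the methods' t-test, and leaving out each mouse. Chosen after seeing the data were B253 and B256 as a block, leaving out both, and the dimmer *Iars* probe set. The *Iars* pair and the motif were also looked at after values were seen, along with 5 other motifs not shown.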

Additional observations from a re-analysis of the deposited data

How the results depend on the processing

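The count of synthetases past an adjusted p of 0.05 was 0 in the main fit and in all 17 alternatives. At an unadjusted p under 0.05 it was 1 in the main fit, 3 with a block for the series of mouse numbers, 2 with B253 and B256 as a block, 0 in the methods' t-test, and 0 to 5 when 1 mouse was left out. Members whose groups do not overlap numbered 1, then 2 with arrays centred on their median, 1 to 12 without 1 mouse (12 without control B256) and 15 without both B253 and B256. Over all genes the groups did not overlap for 14.3% to 18.5% without 1 mouse and for 31.1% without both, since smaller groups overlap less often throughout. The cytosolic median log2 fold change stayed above 0 throughout, at 0.0106 to 0.23 without 1 mouse, as did the mitochondrial one at 0.0048 to 0.13. *Stk11* kept its direction (-1.71 to -1.57 without 1 mouse) but missed the adjusted threshold in the t-test of the methods (-1.64, with 0.566 as its adjusted p), without both B253 and B256 (-1.60, adjusted p = 0.184) and without any 1 mouse other than B302 (adjusted p from 0.0501 to 0.139). The cause of these shifts was not tested, beyond the smaller number of mice.

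Of the 34 members, 15 kept their sign in every alternative. The other 19, all with a log2 fold change of 0.24 or less in size, turned in at least 1. In all, 43 of 578 values had the opposite sign, but many of the 578 could not turn. The t-test, robust estimation with a trend, leaving out dim genes and the block of B253 and B256 kept each main estimate. Averaged probe sets and the dimmer probe set could change only *Iars*. Of the 43, 31 came from leaving out 1 mouse. With array weights the values of opposite sign were *Gars* (-0.0036), *Qars* (-0.0068), *Vars* (-0.023) and *Yars* (0.0090). With the block for the series of mouse numbers they were *Mars* (0.0090), *Sars* (0.083) and *Iars2* (0.038), and without both B253 and B256 *Cars* (-0.12), *Mars* (0.038), *Sars* (0.097) and *Tars2* (-0.042). The dimmer probe set turned *Iars* (-0.021). Leaving out 1 mouse gave a range across 0 for *Cars* (-0.082 to 0.29), *Gars* (-0.15 to 0.31), *Lars* (-0.0092 to 0.32), *Mars* (-0.13 to 0.052), *Nars* (-0.0100 to 0.20), *Qars* (-0.16 to 0.35), *Rars* (-0.036 to 0.14), *Sars* (-0.12 to 0.19), *Vars* (-0.092 to 0.21) and *Yars* (-0.15 to 0.063). It did so too for *Cars2* (-0.065 to 0.26), *Hars2* (-0.035 to 0.27), *Iars2* (-0.24 to 0.035), *Nars2* (-0.094 to 0.22), *Pars2* (-0.016 to 0.11), *Sars2* (-0.0049 to 0.17), *Tars2* (-0.057 to 0.078) and *Wars2* (-0.068 to 0.19). With 3 arrays a group, a median interval of 0.35 to either side limits what could be seen. Signal over background could not be judged without detection calls. The labels give no replicate numbers shared between groups, so the blocks rest on the mouse numbers and on which arrays lay closest.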

Other observations

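*Wars* is known to respond to interferon gamma, and a list of interferon-induced genes was therefore looked at after its value had been seen. Of 16 listed, 12 were measured. Their median was -0.07 on the log2 scale, with 5 estimates above 0 and 7 below, and 0 at an unadjusted p under 0.05 with limma (0 after adjustment). The mean of the list, set against the controls, was 0.12 in mutant B253, -0.08 in B304 and -0.29 in B305, against -0.30 in control B256, 0.38 in B267 and -0.08 in B302. A part of interferon in the value of *Wars* was not tested.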
